A study of Mus musculus with 17 samples.

Results

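The 64 genes described here encode nuclear subunits of the mitochondrial respiratory chain. They were chosen by symbol alone: the Nduf subunits of complex I, Sdha to Sdhd of complex II, the Uqcr subunits of complex III and the Cox4 to Cox8 subunits of complex IV. Of the 19938 genes with an array feature of their own, 35 were complex I members by name, 4 belonged to complex II, 8 to complex III and 17 to complex IV. Where a gene had several features, the brightest was used, as in 10 of the members. Ndufb1 and Ndufb4c have no such feature and were not analysed here, and Cox7c, Ndufb4, Ndufb4b and Ndufs5-ps are measured only together with other genes.

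The 17 samples, each hybridised to an Affymetrix Mouse Gene 1.0 ST array, were myeloid cells from spleens of female BALB/c mice, whose age is not given. CD11b+ cells were enriched with magnetic beads and sorted into a monocytic subset (Ly-6C high, Ly-6G low; Mo) and a granulocytic subset (Ly-6C low, Ly-6G high; PMN), which the submitters call myeloid-derived suppressor cells, also in mice without a tumour. Mo were taken from naive mice (3 arrays), 3 weeks after tumour injection (3 arrays) and 6 weeks after it (3 arrays), and PMN from naive mice (4 arrays), at 3 weeks (2 arrays) and at 6 weeks (2 arrays). The tumour-bearing mice had received 1e+05 Her-2/CT26 cells under the skin, and the naive mice no tumour injection; the study asked how the subsets change as the tumour grows. Spleens were pooled before sorting, and nothing in the labels says whether numbered replicates came from separate pools, so p-values describe the variation among these samples, part of which may be technical.

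The respiratory chain passes electrons from NADH, through complex I, and from succinate, through complex II, by way of ubiquinone to complex III, then by cytochrome c to complex IV, which reduces oxygen. Complexes I, III and IV pump protons across the inner mitochondrial membrane, and ATP synthase uses that gradient. Resting neutrophils are known to rely mainly on glycolysis and to hold few mitochondria, whereas monocytes and dividing myeloid progenitors respire more. The core of complexes I, III and IV includes subunits encoded in mitochondrial DNA, which are not among these genes, so what follows concerns transcripts of the nuclear part only.

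All values are log2 intensities, with differences between group means given ± the standard error of the limma fit over all 17 arrays, and a gene was called changed at a Benjamini-Hochberg adjusted p below 0.05 over all 19938 genes. Levels of different genes are not compared, because a feature's brightness also depends on its probes. Marker levels fitted the sort labels in naive mice: the summed monocyte markers ran from 13.86 to 14.06 in Mo against 10.24 to 10.85 in PMN, and the summed neutrophil markers from 10.88 to 11.29 in Mo against 15.01 to 15.11 in PMN. The median array shared 942.5 distinct values with another Mo array in pairs of Mo and 251 in pairs of PMN, against 146 in pairs from both subsets, as arrays do that were normalized within a subset. Changes within a subset were therefore tested on the deposited values, on which the marker sums also stand. Mo and PMN levels of the members were tested after quantile normalization over all arrays, with the deposited values as an alternative.

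Monocytic cells carried more respiratory chain transcripts at 6 weeks than in naive mice. Of the 64 subunit genes, 51 rose and 2 fell, with a median change of 0.66 on the log2 scale. With arrays centred on the median of the brighter genes instead, a scaling chosen after seeing the data, 40 rose and 8 fell, with a median of 0.36. Among all genes 21.8% rose and 24.4% fell, with a median of -0.09, and of the genes at or above the median brightness 36.9% rose, with a median of 0.15. The rise reached complex I (31 of 35 genes), complex II (4 of 4), complex III (6 of 8) and complex IV (10 of 17). In 54 members every array at 6 weeks lay above every naive array, where 23.7% of all genes did so.

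**Figure D1:**
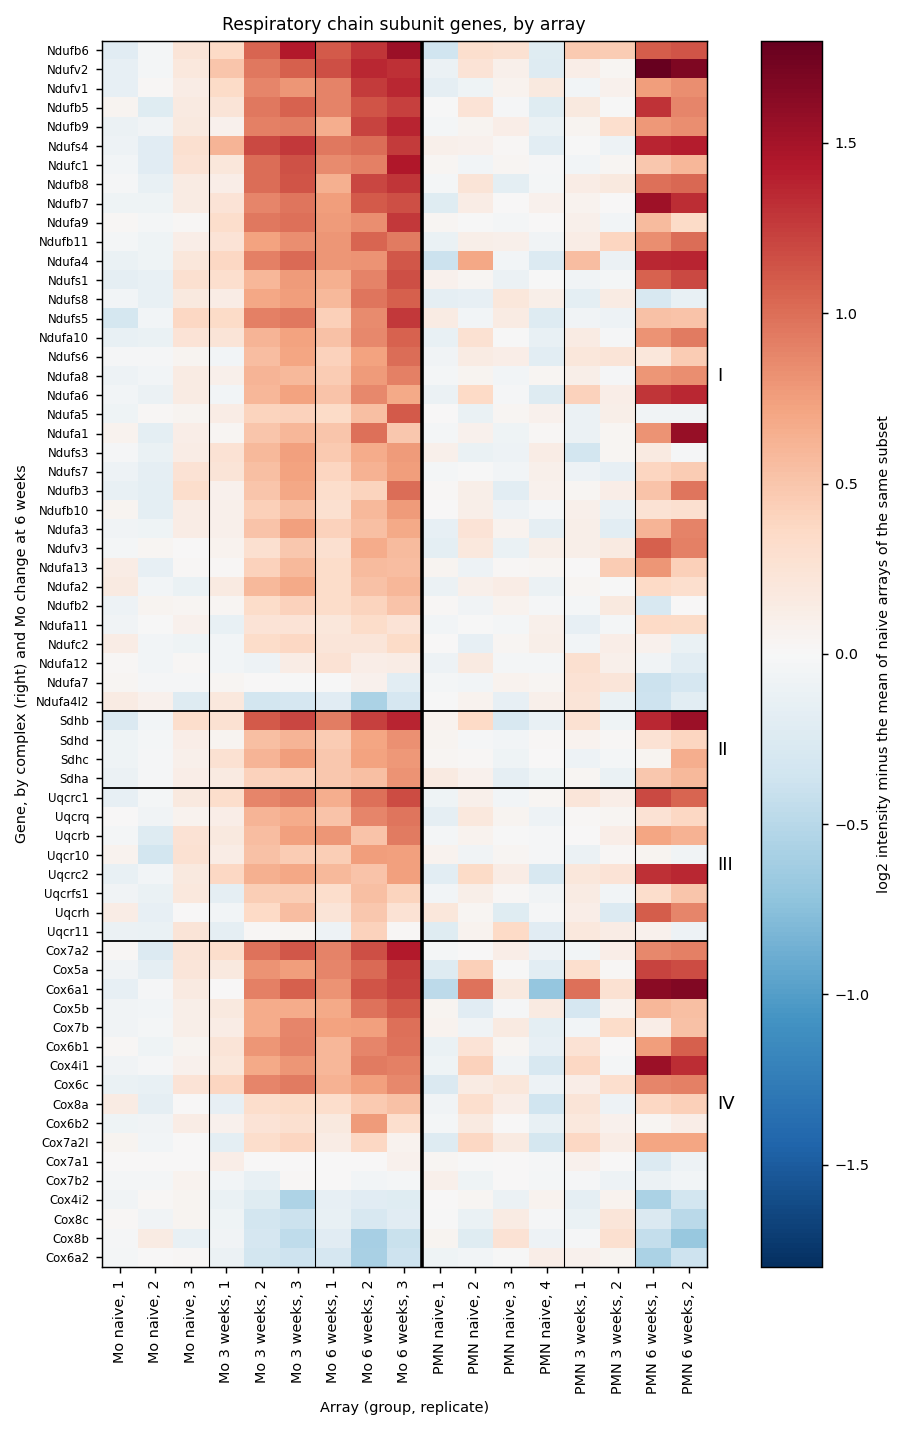
Heat map of the 64 subunit genes (rows, grouped by complex and ordered by their Mo change at 6 weeks) in the 17 arrays (columns); colour gives the log2 intensity minus the mean of the naive arrays of the same subset. In Mo, replicate 1 at 3 weeks is paler than replicates 2 and 3, and in PMN colour appears at 6 weeks, not at 3 weeks.

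In complex I the flavoprotein end that oxidises NADH rose. Ndufv1, which binds NADH and the flavin, had 9.37, 9.74 and 9.84 at 6 weeks against 8.32, 8.5 and 8.61 in naive Mo, a change of 1.17 ± 0.14 (adjusted p = 2.24e-05). Ndufv2, an iron-sulphur subunit beside it, had 9.72, 9.92 and 9.87 at 6 weeks and 8.41, 8.52 and 8.75 in naive Mo (1.27 ± 0.14, adjusted p = 8.82e-06). Neither gene's groups overlapped, and Ndufv2 was 2.42-fold higher. Ndufs1, the large iron-sulphur subunit of the same module, changed by 0.90 ± 0.14 (adjusted p = 0.000228), and its accessory partner Ndufs4, in which mutations cause Leigh syndrome in people, by 1.07 ± 0.16 (adjusted p = 0.000102). The core subunits of the arm that leads electrons on to ubiquinone were also higher: Ndufs8 by 0.87, Ndufs3 by 0.63 and Ndufs7 by 0.59, each past the test.

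Accessory subunits of the membrane arm of complex I gave several of the largest rises in Mo. Ndufb6 had 8.92, 9.10 and 9.36 at 6 weeks against 7.61, 7.78 and 8.05 in naive Mo, the largest change of any member in this comparison (1.31 ± 0.22, adjusted p = 0.000372). Its lowest array at 6 weeks lay above its highest naive array. Ndufb5 rose by 1.09, Ndufb9 by 1.08, Ndufc1 by 1.06, Ndufb8 by 1.04 and Ndufb7 by 1.01, and Ndufb2 rose by 0.42. The 4 complex I genes that did not pass the test were Ndufc2 (0.26, adjusted p = 0.0683), Ndufa12 (0.17), Ndufa7 (-0.04) and Ndufa4l2 (-0.36). Ndufa4, listed here with complex I by its name although its protein is now counted with complex IV, rose by 0.91 ± 0.23 (adjusted p = 0.00689).

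All 4 subunits of complex II, the enzyme shared with the TCA cycle, rose in Mo. Sdhb, which carries the iron-sulphur clusters, had 8.75, 9.06 and 9.21 at 6 weeks against 7.56, 7.78 and 8.14 in naive Mo (1.18 ± 0.22, adjusted p = 0.000842). The flavoprotein Sdha changed by 0.61 ± 0.11 (adjusted p = 0.000814), and the membrane anchors Sdhc and Sdhd by 0.66 ± 0.14 and 0.66 ± 0.13 (adjusted p = 0.00197 and 0.000976). In each of the 4 genes the arrays at 6 weeks lay above all naive arrays.

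Of complex III, which takes electrons from ubiquinone to cytochrome c, 6 of 8 subunits rose in Mo. The core protein Uqcrc1 had 10.27, 10.62 and 10.79 at 6 weeks and 9.48, 9.59 and 9.79 in naive Mo, so that its groups did not overlap (0.94 ± 0.15, adjusted p = 0.000231). Uqcrq rose by 0.78, Uqcrb by 0.75, Uqcr10 by 0.64, the second core protein Uqcrc2 by 0.61 and the Rieske iron-sulphur protein Uqcrfs1 by 0.42 (adjusted p = 0.024). Uqcrh, the hinge protein at the cytochrome c site, did not pass the test (0.33 ± 0.15, adjusted p = 0.0812), and neither did Uqcr11 (0.11 ± 0.15).

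The widely expressed nuclear subunits of complex IV, which surround its mitochondrially encoded catalytic core, rose as well. Cox7a2 had 8.53, 8.80 and 9.07 at 6 weeks against 7.66, 7.39 and 7.87 in naive Mo (1.16 ± 0.18, adjusted p = 0.000152). Cox5a changed by 1.05 ± 0.18 (adjusted p = 0.000416), Cox5b by 0.92 ± 0.14 (adjusted p = 0.000193) and Cox4i1, the regulatory subunit that binds ATP, by 0.81 ± 0.17 (adjusted p = 0.00222). Cox6a1 changed by 1.05 with a wider error of 0.34 (adjusted p = 0.0206), and it passed in 2 of the 6 fits that left out an array of these groups. Cox7a2l, which is known to join complex III and complex IV in supercomplexes, did not pass (0.19 ± 0.17, adjusted p = 0.351).

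Markers of other cell states moved with these genes in Mo. Cell cycle genes rose in 13 of 13, with a median of 3.11, among them Mki67 by 3.28. Summed cell cycle levels ran from 13.29 to 14.25 at 6 weeks against 10.57 to 11.4 in naive Mo. All 4 granulocyte progenitor markers rose, Mpo by 4.53, and their summed level ran from 12.10 to 13.51 at 6 weeks against 8.53 to 9.06 in naive Mo. Of the 10 neutrophil markers 7 rose, Ly6g by 1.24, and 1 fell, with a summed level of 12.87 to 14.26 at 6 weeks against 10.88 to 11.29 in naive Mo. Of the 4 measured monocyte markers, F13a1 rose by 0.66, Csf1r and Cx3cr1 changed by -0.67 and -1.64, both past the test, and Ccr2 did not pass (-0.04). Their summed level was 13.91 to 14.02 at 6 weeks against 13.86 to 14.06 in naive Mo, while their median level was 11.70 to 11.91 against 12.02 to 12.21 in naive Mo, without overlap. T and NK cell markers fell in 5 of 6 genes, with a summed level of 8.30 to 8.59 at 6 weeks against 9.34 to 9.94 in naive Mo. B cell markers fell in 2 of 4, with 8.61 to 9.02 at 6 weeks against 9.13 to 10.17 in naive Mo. None of the 3 erythroid markers passed, but their summed level was 10.54, 11.17 and 8.64 in the arrays at 6 weeks against 9.26, 9.72 and 8.66 in naive Mo. The part of these cells in the rise of the subunits was not tested, and in sorted bulk RNA fewer cells of a type cannot be told apart from less RNA per cell.

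At 3 weeks the Mo result rested on single arrays. Of the 64 genes 24 rose and none fell, with a median of 0.47, where 5.2% of all genes rose and 0.833% fell. The array medians of the members were 8.45, 9.0 and 9.18 at 3 weeks against 8.19, 8.13 and 8.44 in naive mice. Replicate 1 at 3 weeks thus lay next to the highest naive array, whereas replicates 2 and 3 lay further above it. Summed B cell markers were 9.95 in replicate 1 at 3 weeks, against 8.88 and 9.11 in replicates 2 and 3. In naive Mo they were 10.17 in replicate 1, against 9.13 and 9.14 in replicates 2 and 3. Their part in the subunit levels was not tested. Without 3-week replicate 1, 54 members passed the test (51 higher and 3 lower), where 4531 of all 19938 genes were higher and 4380 lower. Leaving out any of 4 other arrays (3-week replicates 2 and 3 and naive replicates 1 and 2) left none, and 16 to 18 of all genes.

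The genes with the largest changes at 3 weeks in Mo came from the same complexes. Ndufs4 had 8.76, 9.34 and 9.42 at 3 weeks against 8.06, 7.95 and 8.44 in naive Mo (1.03 ± 0.16, adjusted p = 0.00538). Sdhb had 8.11, 8.94 and 9.03 at 3 weeks against 7.56, 7.78 and 8.14 in naive Mo (0.86 ± 0.22, adjusted p = 0.0365), and its lowest value at 3 weeks fell inside the naive range. Ndufb6 changed by 0.95, Ndufv2 by 0.84, Cox7a2 by 0.80, Ndufc1 by 0.79, Ndufb8, Ndufa9 and Ndufb5 by 0.75 each and Ndufs5 by 0.74. Other subunits past the test included Uqcrc1 (0.72), Ndufv1 (0.67), Ndufs1 (0.56), Sdhc (0.54) and Cox5b (0.51). Cox5a (0.58, adjusted p = 0.0608), Cox4i1 (0.56, adjusted p = 0.0596), Sdhd (0.4), Sdha (0.34) and Uqcrfs1 (0.24) did not pass.

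Between 3 and 6 weeks, the NADH-binding subunit Ndufv1 was the member of the 64 that passed in Mo. It had 9.37, 9.74 and 9.84 at 6 weeks against 8.82, 9.36 and 9.27 at 3 weeks (0.5 ± 0.14, adjusted p = 0.0446), and 4.38% of all genes rose and 3.13% fell. The members' median difference was 0.22, against -0.03 over all genes. Cox5a differed by 0.47 ± 0.18 (adjusted p = 0.149) and Sdhb by 0.31 ± 0.22 (adjusted p = 0.503), neither past the test. Same-numbered Mo arrays at 3 and 6 weeks deviated together from their group means, with correlations of 0.628, 0.284 and 0.475. Replicate 2 at 3 weeks went further with 6-week replicate 3 (0.324) than with its own number. With the replicate number as a block in every group 5 members passed, all higher: Ndufv1, Ndufb9 (0.45), Ndufv2 (0.43), Cox5b (0.41) and Ndufs1 (0.34). In that fit 1390 of all 19938 genes were higher and 984 lower. Without the block, 7 members passed when 6-week replicate 1 was left out, where 1727 of all genes were higher and 1076 lower. None passed without 3-week replicate 1 or either of the other 6-week replicates, where 1587, 1025 and 1000 of all genes were called.

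**Figure D2:**
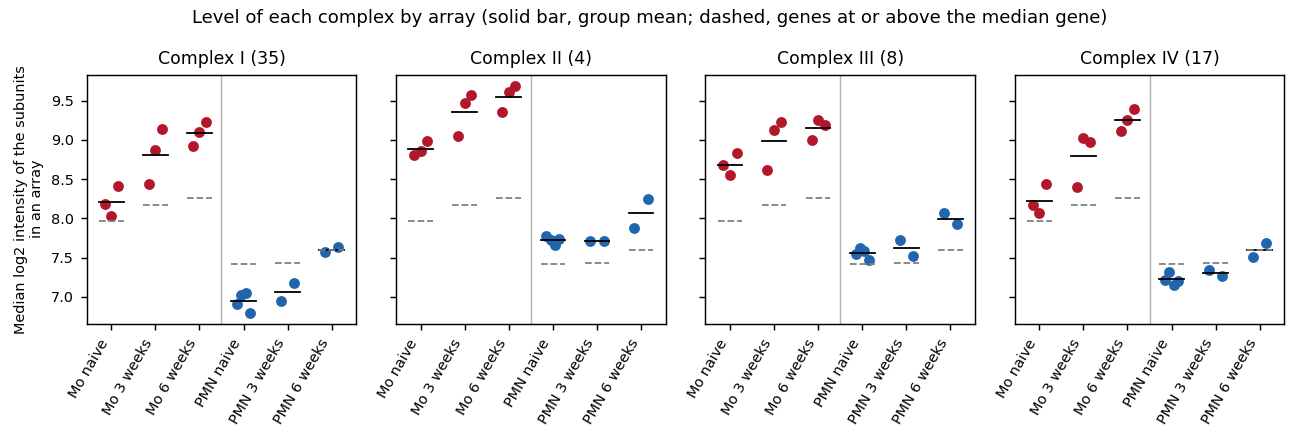
Median log2 intensity of the subunit genes of each complex in every array (points; red, Mo; blue, PMN), with the group mean as a solid bar and the same median over all genes at or above the median brightness as a dashed bar. The values shared between arrays point to Mo and PMN having been normalized apart, which the labels do not state, so heights are compared within a subset only. In PMN the points at 6 weeks lie above those of naive mice in each complex.

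Granulocytic cells also carried more respiratory chain transcripts at 6 weeks than in naive mice. At 6 weeks 43 of the 64 genes were higher than in naive PMN and 5 were lower, with a median of 0.56; centred on the brighter genes, 34 rose and 10 fell, with a median of 0.38. Among all genes 25.5% rose and 40% fell, with a median of -0.18, and of the genes at or above the median brightness 46.5% rose, with a median of 0.23. By complex, 25 of 35 genes of complex I rose and 1 fell, 4 of 4 rose in complex II, 5 of 8 in complex III, and in complex IV 9 of 17 rose and 4 fell. The array medians of the members were 7.61 and 7.70 at 6 weeks, against 7.03, 7.27, 7.12 and 7.13 in naive PMN.

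Ndufv2 gave the largest rise in PMN. It had 7.90 and 7.76 at 6 weeks against 5.98, 6.33, 6.17 and 5.85 in naive PMN, a 3.36-fold difference (1.75 ± 0.15, adjusted p = 1.61e-07). Its neighbours in the electron input module, Ndufs4, Ndufs1 and Ndufv1, changed by 1.39 ± 0.17, 1.12 ± 0.15 and 0.79 ± 0.15 (adjusted p = 3.66e-06, 1.37e-05 and 0.000431). Ndufb7, in the membrane arm, had 8.93 and 8.74 at 6 weeks and 7.19, 7.54, 7.41 and 7.47 in naive PMN (1.43 ± 0.17, adjusted p = 4.04e-06). Ndufa4 rose by 1.36 and Ndufa6, a subunit of the LYR family, by 1.32. Ndufa1 had 6.81 and 7.57 at 6 weeks against 5.97, 6.09, 5.93 and 6.02 in naive PMN, so that the 6-week arrays differed from each other by more than the naive arrays did (1.18 ± 0.19).

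Some complex I subunits near the ubiquinone site had no call in PMN. Ndufs8, which holds iron-sulphur clusters on the path to ubiquinone, had 6.77 and 6.93 at 6 weeks against 6.90, 6.92, 7.26 and 7.18 in naive PMN, overlapping ranges with a difference of -0.21 ± 0.18 (adjusted p = 0.293). Ndufs3 differed by 0.07 ± 0.14 (adjusted p = 0.655) and the accessory subunit Ndufa5 by -0.06 ± 0.15 (adjusted p = 0.741), whereas Ndufs7, which belongs to the same module, rose by 0.42 ± 0.14 (adjusted p = 0.0136). Ndufa7 fell, with 7.53 and 7.62 at 6 weeks against 7.88, 7.87, 7.98 and 7.96 in naive PMN (-0.35 ± 0.09, adjusted p = 0.00282). The remaining complex I genes without a call were Ndufs6 (0.33), Ndufb10 (0.28), Ndufc2 (-0.02), Ndufa12 (-0.13), Ndufb2 (-0.14) and Ndufa4l2 (-0.28).

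In complex II of PMN, Sdhb rose most, with 7.52 and 7.70 at 6 weeks against 6.22, 6.52, 5.87 and 6.02 in naive PMN (1.45 ± 0.23, adjusted p = 8.07e-05). Sdha changed by 0.53 ± 0.12 (adjusted p = 0.00151), and the anchors Sdhc and Sdhd passed narrowly (0.35 ± 0.15 and 0.33 ± 0.13, adjusted p = 0.047 and 0.0419). Of the 6 fits that left out an array of these groups, Sdhc passed in 1 and Sdhd in 0, and with joint quantile normalization Sdhc had -0.0072 (adjusted p = 0.966). In complex III the core proteins led: Uqcrc2 had 9.66 and 9.69 at 6 weeks and 8.15, 8.68, 8.48 and 8.05 in naive PMN (1.33 ± 0.15, adjusted p = 2.17e-06), and Uqcrc1 changed by 1.12 ± 0.16 (adjusted p = 2.27e-05). Uqcrh rose by 0.98, Uqcrb by 0.67 and Uqcrfs1 by 0.4 (adjusted p = 0.0247). Uqcrq (0.32), Uqcr10 (-0.01) and Uqcr11 (-0.01) did not pass.

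For complex IV of PMN, Cox4i1 had 9.4 and 9.19 at 6 weeks against 7.79, 8.27, 7.80 and 7.57 in naive PMN, without overlap (1.44 ± 0.18, adjusted p = 8.21e-06). Cox6a1 had 8.60 and 8.63 at 6 weeks and 6.5, 7.96, 7.15 and 6.28 in naive PMN, a rise of 1.64 over naive arrays that themselves spread widely (adjusted p = 0.00102). Cox5a changed by 1.20 ± 0.19 (adjusted p = 7.13e-05), Cox5b by 0.57 ± 0.15 (adjusted p = 0.00423) and Cox7a2l by 0.71 ± 0.18 (adjusted p = 0.00292). Cox6b1, Cox6c and Cox7a2 rose by 0.92, 0.90 and 0.88, and Cox8a by 0.4, while Cox7b did not pass (0.32, adjusted p = 0.112).

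In PMN too, other marker levels moved with the subunits. Cell cycle genes rose in 13 of 13, with a median of 2.23, and their summed level stood at 12.95 and 12.67 at 6 weeks against 10.36 to 10.42 in naive PMN. Of the 4 granulocyte progenitor markers 2 rose, Mpo by 1.64, with summed levels of 9.13 and 8.89 at 6 weeks against 7.93 to 8.19 in naive PMN. Summed neutrophil markers were 16.00 and 16.08 at 6 weeks against 15.01 to 15.11 in naive PMN, with Ly6g higher by 2.43, and all 4 B cell markers fell, with summed levels of 9.17 and 9.19 at 6 weeks against 10.71 to 10.89 in naive PMN. Summed erythroid markers were also higher, at 9.35 and 9.11 against 8.52 to 8.64 in naive PMN. Those of dendritic cells (9.09 and 9.30 against 9.65 to 9.86) and platelets (8.23 and 8.33 against 8.61 to 8.74) were lower. Eosinophil and mast cell markers were lower too (8.37 and 8.52 against 8.53 to 8.61). Monocyte markers and T and NK cell markers stayed within their naive range. The part of all these markers in the rise of the subunits was not tested.

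At 3 weeks none of the 64 genes passed the test against naive PMN, nor did any of all genes (0% higher and 0% lower), and at an unadjusted p below 0.05 there was 1 member, higher; of all genes 244 were higher and 130 lower. The array medians of the members were 7.29 and 7.25 at 3 weeks against 7.03 to 7.27 in naive PMN. Ndufv2 had 6.20 and 6.11 at 3 weeks against 5.98, 6.33, 6.17 and 5.85 in naive mice (0.08 ± 0.15), and Sdhb had 6.43 and 6.08 at 3 weeks against 6.22, 6.52, 5.87 and 6.02 in naive PMN (0.10 ± 0.23). The furthest member was Cox6a1 with 0.63 ± 0.36 (adjusted p = 1), and the array values of all 3 genes overlapped with the naive ones.

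Set against 3 weeks, 34 members were higher and 6 lower in PMN at 6 weeks, with a median of 0.56, where 23.7% of all genes rose and 34.9% fell. Ndufv2 rose by 1.67 ± 0.18 (adjusted p = 1.7e-06), with 7.90 and 7.76 at 6 weeks against 6.20 and 6.11 at 3 weeks. Ndufs4 rose by 1.43, Ndufb7 by 1.39, Sdhb by 1.35, Cox4i1 by 1.27, Ndufa1 by 1.21, Ndufs1 by 1.17, Ndufa4 by 1.14, Uqcrc2 by 1.11 and Ndufa6 by 1.06. The 6 genes that fell were Ndufa12 (-0.32), Cox4i2 (-0.41), Cox8c (-0.42), Cox6a2 (-0.54), Ndufa7 (-0.58) and Cox8b (-0.69). Cox5a, Uqcrc1, Ndufv1, Cox5b, Sdha and Sdhc rose by 1.04, 0.95, 0.78, 0.69, 0.57 and 0.41, and Uqcrfs1 (0.35) and Sdhd (0.29) did not pass.

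Many of the members called higher at 6 weeks were called in both subsets, whose arrays are separate. Higher in both were 41 genes, which were 80.4% of the 51 in Mo and 95.3% of the 43 in PMN. With 51 and 43 of the 64 called, much of that overlap follows from the counts alone. Among all genes 21.8% rose in Mo and 25.5% in PMN, and of the brighter genes 36.9% and 46.5%. How many of all genes rose in both was not counted. Across the 64 genes the changes of the subsets gave a Pearson correlation of 0.759 and a Spearman correlation of 0.708, as a description over genes that share the same arrays. Called higher in Mo alone were 10 genes: Ndufa5, Ndufb10, Ndufb2, Ndufs3, Ndufs6, Ndufs8, Uqcr10, Uqcrq, Cox6b2 and Cox7b. Uqcrh and Cox7a2l were called higher in PMN alone. A call in 1 subset alone is not a difference between subsets, which was tested next.

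**Figure D3:**
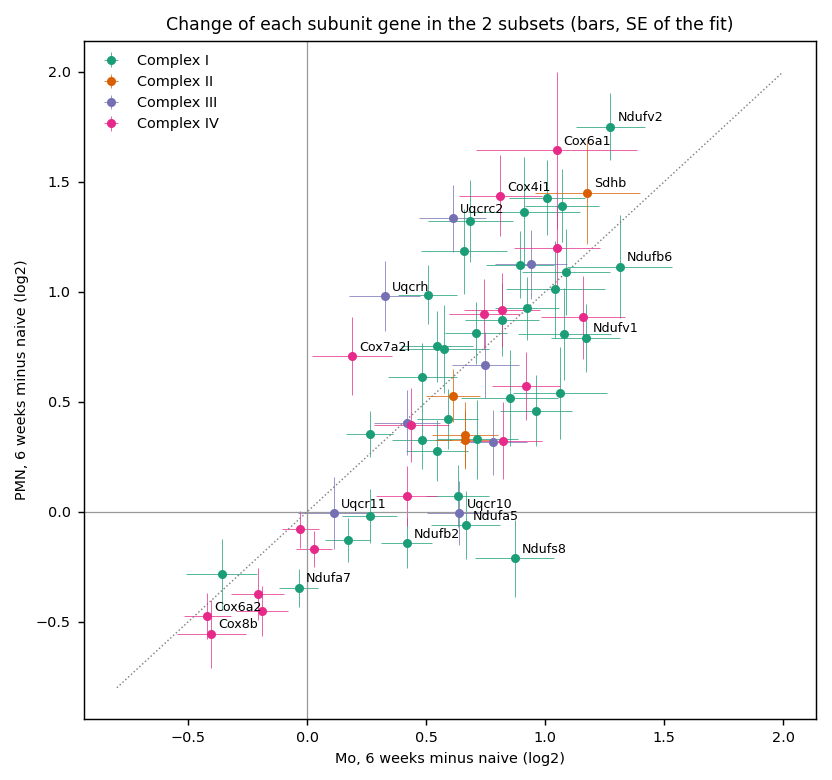
Change of each of the 64 subunit genes from naive mice to 6 weeks, in Mo (x axis) and in PMN (y axis), on the log2 scale, with bars for the SE of the fit and colours for the complex; the dotted line marks equal change. Ndufs8, Ndufa5, Ndufb2 and Uqcr10 lie below the line, at about 0 or under it in PMN, and Uqcrc2 and Uqcrh lie above it.

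The test of the difference between the subsets, Mo change minus PMN change, called 6 members at 6 weeks, 4 higher and 2 lower, where 6.47% of all genes were higher and 11% lower. Ndufs8 differed most: it had 8.69, 9.07 and 9.18 at 6 weeks against 8.06, 7.98 and 8.28 in naive Mo, while in PMN it did not pass, and the difference of the changes was 1.08 ± 0.24 (adjusted p = 0.00504). Ndufa5 differed by 0.73 ± 0.21 (adjusted p = 0.0246), Uqcr10 by 0.65 ± 0.20 (adjusted p = 0.0333) and Ndufb2 by 0.56 ± 0.16 (adjusted p = 0.0195), each with the larger change in Mo. Uqcrc2 and Uqcrh had the larger change in PMN, with differences of -0.72 ± 0.21 and -0.66 ± 0.22 (adjusted p = 0.0224 and 0.0473). No difference was called for Ndufv1 (0.38 ± 0.21), Ndufs1 (-0.23 ± 0.21), Sdha (0.08 ± 0.17), Sdhb (-0.27 ± 0.32), Sdhc (0.31 ± 0.20), Sdhd (0.34 ± 0.18), Uqcrc1 (-0.18 ± 0.22), Uqcrfs1 (0.02 ± 0.20), Cox4i1 (-0.62 ± 0.25), Cox5a (-0.15 ± 0.26) or Cox5b (0.35 ± 0.21), although a missed threshold does not show that the subsets changed alike. Leaving out either PMN array at 6 weeks cut the 6 calls to 2, with 2145 and 2098 of all genes called, where the main fit called 3487.

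For the change to 3 weeks no member was called different between the subsets, where 0.00502% of all genes were called higher and 0% lower. Without Mo replicate 1 at 3 weeks 30 members were called, 29 of them with the larger change in Mo. In that fit 2063 of all genes were higher and 1179 lower. For the change between 3 and 6 weeks 17 members were called, 3 higher and 14 lower in Mo than in PMN, where 11.9% of all genes were higher and 17.3% lower. Of the genes at or above the median brightness 11.9% were higher and 32.8% lower. Ndufs4 differed by -1.39 ± 0.25 (adjusted p = 0.000564), Ndufv2 by -1.24 ± 0.23 (adjusted p = 0.000763) and Ndufb7 by -1.08 ± 0.25 (adjusted p = 0.00485), all with the larger change in PMN. With single arrays left out that count ran from 9 to 34: it was 34 without Mo 3-week replicate 1, 10 without Mo 3-week replicate 2 or Mo 6-week replicate 1, 9 without Mo 3-week replicate 3, PMN 3-week replicate 2 or PMN 6-week replicate 2, and 11 without PMN 6-week replicate 1. Of all genes 3641 to 9334 were called in those fits, the most without Mo 3-week replicate 1.

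In naive mice most subunits were higher in Mo than in PMN, on values set to a common scale. After quantile normalization over all 17 arrays 51 of the 64 genes were higher in Mo and 5 lower, with a median difference of 0.73, where 28.1% of all genes were higher and 32.5% lower. Ndufc1 had 8.04, 7.84 and 8.26 in naive Mo against 5.62, 5.58, 5.60 and 5.57 in naive PMN (2.45 ± 0.15, adjusted p = 3.96e-10), and Ndufv2 had 8.27, 8.34 and 8.51 against 5.98, 6.4, 6.16 and 5.84 (2.28 ± 0.12, adjusted p = 5.02e-11). In neither gene did the groups overlap. Ndufb5 was higher by 2.02, Cox6a1 by 1.89, Cox7a2 by 1.81, Ndufa9 by 1.79, Cox5a by 1.46, Sdhb and Cox6c by 1.45 each and Ndufa4 by 1.38. Smaller differences were found for Sdhd (1.09), Uqcrc1 (1.05), Cox4i1 (0.98), Uqcrfs1 (0.89), Ndufv1 (0.36), Ndufs1 (0.31) and Sdha (0.27), all past the test, and Cox5b (0.16) and Sdhc (0.12) did not pass.

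The 5 genes lower in naive Mo than in naive PMN were Ndufa7 (-0.83), Cox6a2 (-0.70), Uqcr11 (-0.53), Ndufa4l2 (-0.42) and Cox4i2 (-0.41). Ndufa7, an accessory subunit of complex I, had 7.59, 7.48 and 7.5 in naive Mo against 8.31, 8.26, 8.42 and 8.42 in naive PMN (adjusted p = 5.14e-08). At 6 weeks 47 members were higher in Mo and 4 lower, with a median of 0.66, where 26.8% of all genes were higher and 21.8% lower. Ndufc1 (2.51), Ndufa9 (1.84), Ndufs3 (1.76), Cox7a2 (1.62), Ndufb5 (1.61), Ndufs8 (1.46), Cox6c (1.45), Ndufv2 (1.42), Cox7b (1.32) and Sdhd (1.28) led. Lower in Mo were Ndufv3 (-0.5), Ndufa4l2 (-0.44), Cox6a2 (-0.42) and Ndufa7 (-0.34). On the values as deposited, without joint normalization, 57 members were higher and 1 lower in naive mice (median 1.08), and 56 were higher and none lower at 6 weeks (median 1.21). Of the genes lower in Mo, Ndufa7 in naive mice was the call that passed on both scales, and the differences of Ndufa7 at 6 weeks and of Cox4i2 in naive mice turned their sign, so the lower calls depend on the joint normalization.

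Several subunits exist as a widely expressed form and an alternative isoform of a few tissues. Cox4i1 has the lung isoform Cox4i2; Cox6a1, Cox7a2 and Cox8a have the striated muscle isoforms Cox6a2, Cox7a1 and Cox8b; and Cox6b2, Cox7b2 and Cox8c are known from testis, while Ndufa4l2 is a hypoxia-induced relative of Ndufa4. Among the 8 alternative isoforms 1 rose and 2 fell in Mo at 6 weeks, where 24.4% of all genes fell, and 4 fell in PMN, where 40% of all genes fell, shares near those backgrounds. Of the other 56 members 50 rose and none fell in Mo, and 43 rose and 1 fell in PMN. In Mo, Cox6a2 had 7.45, 7.17 and 7.38 at 6 weeks against 7.72, 7.76 and 7.78 in naive mice (-0.42 ± 0.10, adjusted p = 0.00392), and Cox8b fell by 0.4 with an adjusted p of 0.0329. Cox6b2 rose by 0.42 ± 0.13 (adjusted p = 0.0167), with 7.13, 7.73 and 7.27 against 6.88, 6.89 and 7.10, so that its highest array stood apart from the other arrays at 6 weeks.

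The alternative isoforms that fell in PMN at 6 weeks were Cox8b (-0.55 ± 0.15), Cox6a2 (-0.47 ± 0.10), Cox4i2 (-0.45 ± 0.12) and Cox8c (-0.37 ± 0.12). Cox7a1 (-0.17), Ndufa4l2 (-0.28), Cox7b2 (-0.08) and Cox6b2 (0.07) did not pass. Olfactory and vomeronasal receptor genes, 1190 of them, which myeloid cells are not known to use, had a median of -0.32 in Mo and -0.36 in PMN at 6 weeks, and 591 and 682 of them passed as lower. The falls of these 4 isoforms in PMN stood beside that shift and lay between -0.37 and -0.55. Cox6b1, Cox7b and Cox8a, the widely expressed partners not yet described in Mo, rose by 0.82, 0.82 and 0.44 (adjusted p of Cox8a = 0.0343), and Cox4i2 (-0.19), Cox8c (-0.21), Cox7a1 (0.03) and Cox7b2 (-0.03) did not pass there.

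**Figure D4:**
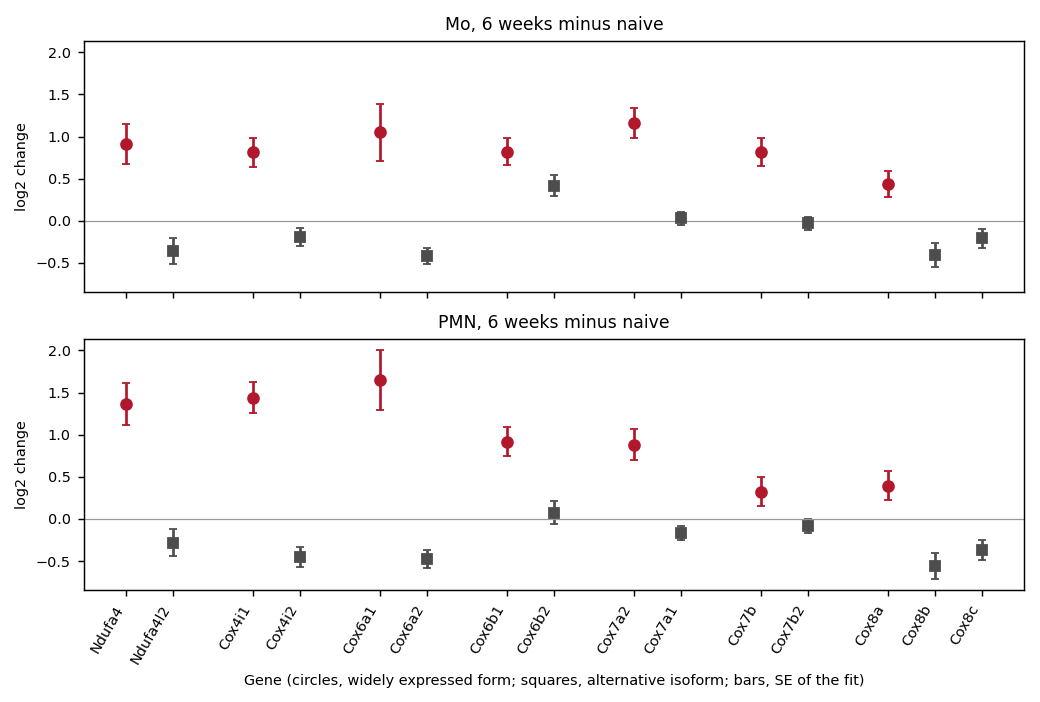
Log2 change from naive mice to 6 weeks of the widely expressed subunits (red circles) and of their alternative isoforms (grey squares), with bars for the SE of the fit, in Mo (top) and PMN (bottom). The circles lie above 0 in both panels, and of the squares only Cox6b2 in Mo passed as higher.

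Other genes of oxidative metabolism were counted from lists drawn up by gene name, against 21.8% of all genes higher in Mo at 6 weeks and 25.5% in PMN, or 36.9% and 46.5% of the brighter genes. ATP synthase, which uses the proton gradient, rose in 16 of 17 genes in Mo (median 0.77) and in 13 of 17 in PMN, where 1 fell (median 0.91). Atp5g3, of its membrane ring, rose by 1.08 in Mo and 1.25 in PMN, and Atp5b, its catalytic subunit, by 0.78 and 1.09. Pyruvate dehydrogenase and the TCA cycle rose in 16 of 17 genes in Mo (median 0.72) and in 11 in PMN, where 1 fell (median 0.80). Citrate synthase (Cs) rose by 0.78 in Mo and 1.17 in PMN. Idh3a, of the NAD-dependent isocitrate dehydrogenase, rose by 1.42 in Mo and had -0.03 in PMN, where it did not pass. A list of ubiquinone synthesis genes with cytochrome c and cytochrome c1 rose in 5 of 12 genes in Mo (median 0.21), and in PMN 1 rose and 3 fell (median -0.09). Cytochrome c1 (Cyc1), itself a catalytic subunit of complex III that the choice by symbol left out, rose by 1.03 in Mo and 0.94 in PMN, and it was the 1 rise of the list in PMN. Cytochrome c (Cycs), the mobile carrier, rose by 0.83 in Mo and had 0.27 in PMN, where it did not pass, and Coq2, Coq3 and Coq7 of ubiquinone synthesis were the genes that fell in PMN.

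Genes that assemble or supply the complexes were counted next. Complex I assembly factors rose in 8 of 14 genes in Mo (median 0.33), and in PMN 4 rose and 2 fell (median -0.13), a share of rises near that of all genes. Ndufaf7, a methyltransferase known in human cells to act on complex I, rose in both (0.87 in Mo, 0.83 in PMN), and Ecsit rose in Mo (0.35) and fell in PMN (-0.42). Assembly factors of complexes II to IV rose in 13 of 25 genes in Mo (median 0.30), and in PMN 11 rose and 5 fell (median 0.09); Surf1, a complex IV factor, rose by 0.5 in Mo and 0.84 in PMN. Genes of mitochondrial protein import rose in 16 of 20 in Mo (median 0.52), but in PMN 3 rose and 3 fell (median 0.01). The receptor gene Tomm70a rose by 0.71 in Mo and 1.60 in PMN, and the matrix chaperone Hspa9 rose by 1.09 in Mo and had 0.17 in PMN, where it did not pass.

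Of 16 regulators of mitochondrial biogenesis 8 rose in Mo (median 0.36), and 7 rose and 3 fell in PMN (median 0.13). Of all genes 21.8% rose in Mo and 25.5% in PMN, and of the brighter genes 36.9% and 46.5%. The share of rises in PMN was thus near that of the brighter genes. The 3 regulators that fell in PMN are not among those named here. Gabpa and Gabpb1, the subunits of the ETS-family factor NRF-2, rose by 0.89 and 0.93 in Mo and by 1.5 and 1.01 in PMN, and Nrf1 by 0.49 and 0.54. Myc rose by 1.22 in Mo and had -0.44 in PMN, where it did not pass. Glycolysis genes rose in 10 of 12 in Mo (median 0.76) and in 9 of 12 in PMN (median 1.02). Ldha, which turns pyruvate into lactate, rose by 0.69 in Mo and 1.57 in PMN.

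Promoters of members that rose together in both subsets are shown to place the binding letters of factors known for respiratory genes. Promoter windows of 300 bases (250 before the transcription start and 50 after it) from RefSeq, build GRCm38.p6, matched 51 of the 64 members. The capitals mark the NRF-1 consensus with its middle base free, CCGGAAG for the ETS family and AAGATGGCG for YY1, searched on both strands. Uqcrc1 lies at chr9:108936398-108936697 (plus strand), Cox6a1 at chr5:115348909-115349208 (minus strand), Sdhb at chr4:140961021-140961320 (plus strand) and Ndufs4 at chr13:114388045-114388344 (minus strand). Each window is printed 5′ to 3′ on the gene's own strand.
Uqcrc1: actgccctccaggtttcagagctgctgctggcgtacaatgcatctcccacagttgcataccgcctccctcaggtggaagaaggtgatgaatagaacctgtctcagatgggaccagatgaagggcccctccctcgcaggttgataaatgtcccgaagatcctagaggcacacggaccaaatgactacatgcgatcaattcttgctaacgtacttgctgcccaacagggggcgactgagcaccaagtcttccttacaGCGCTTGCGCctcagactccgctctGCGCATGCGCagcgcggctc
Cox6a1: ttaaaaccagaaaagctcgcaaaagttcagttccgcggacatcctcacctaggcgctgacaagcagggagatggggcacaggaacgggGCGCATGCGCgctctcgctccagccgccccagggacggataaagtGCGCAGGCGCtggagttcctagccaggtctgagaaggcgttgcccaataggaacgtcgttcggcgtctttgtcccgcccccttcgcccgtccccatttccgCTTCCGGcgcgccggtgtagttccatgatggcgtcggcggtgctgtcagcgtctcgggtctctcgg
Sdhb: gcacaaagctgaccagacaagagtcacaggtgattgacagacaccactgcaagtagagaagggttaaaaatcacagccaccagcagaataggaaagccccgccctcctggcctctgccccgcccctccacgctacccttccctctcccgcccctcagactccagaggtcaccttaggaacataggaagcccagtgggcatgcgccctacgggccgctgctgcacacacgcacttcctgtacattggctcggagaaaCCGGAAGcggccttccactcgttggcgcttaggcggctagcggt
Ndufs4: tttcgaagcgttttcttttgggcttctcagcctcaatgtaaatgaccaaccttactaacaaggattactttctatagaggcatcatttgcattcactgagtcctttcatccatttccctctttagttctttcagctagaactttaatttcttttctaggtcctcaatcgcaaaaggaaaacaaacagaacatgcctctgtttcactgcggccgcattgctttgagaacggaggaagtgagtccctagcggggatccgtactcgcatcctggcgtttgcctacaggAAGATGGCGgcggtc

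The window of Uqcrc1 held the NRF-1 letters at 2 places downstream of the start, that of Cox6a1 held them at 2 places upstream of it beside an ETS match, that of Sdhb held an ETS match and that of Ndufs4 a YY1 match. In all, 10 of the 51 member promoters held the NRF-1 letters (19.6%, against 5.19% of 27025 genes), 11 the ETS letters (21.6% against 9.93%) and 5 the YY1 letters (9.8% against 1.64%). For CREB (TGACGTCA) the shares were 7.84% against 2.03%, for SP1 (GGGCGG) 41.2% against 38.2%, for an E-box (CACGTG) 3.92% against 8.09% and for TATAAA 11.8% against 15.7%. The NRF-1 letters stood in the promoters of Cox6a1, Ndufa11, Ndufa5, Ndufa6, Ndufa8, Ndufs5, Ndufs6, Sdha, Sdhd and Uqcrc1. Members with them had a median change at 6 weeks of 0.70 in Mo and 0.52 in PMN, against 0.64 and 0.61 in members without. Those with the ETS letters had 0.82 and 0.92, against 0.66 and 0.56. For SP1 the medians were 0.67 and 0.87, against 0.68 and 0.44, and for YY1 0.96 and 0.46, against 0.66 and 0.66. Members with the CREB letters had 0.42 and 0.38, against 0.69 and 0.61. An E-box went with 0.57 and 0.22, against 0.67 and 0.57, and TATAAA with 0.26 and 0.17, against 0.71 and 0.61. These gaps were not tested. A match is a description of the letters in the window and not evidence of binding.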

How the data were processed

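The values the authors deposited are intensities on a linear scale, from 9.755052 to 32095.39, made with RMA per the submitters' processing notes, whose version and further settings are not given in the sources used here. RMA normally returns log2 values, so log2 was taken here before testing, and no array was normalized again for changes within a subset. The table has 35557 features: 21789 name 1 gene, 1621 several and 12147 none in the platform annotation, and the brightest feature stood for each of 19938 genes. Nothing was filtered on brightness. limma 3.58.1 in R 4.3.3 fitted 6 group means over 17 arrays (lmFit, eBayes, two-sided, Benjamini-Hochberg), and differences between subsets were contrasts of the same fit. Mo and PMN levels used quantile normalization over all arrays. The number of arrays limits the precision. The scripts were tested on simulated data. Of the members all are accounted for, and those named with values are, per comparison, up to 10 rises and 10 falls past the test plus a fixed set of subunits, not all of them catalytic, and isoform pairs. Members and lists were chosen with earlier results of these data known. Nothing in the labels says that equal replicate numbers mark a shared batch. The deviations of same-numbered Mo arrays from their group means correlated at 0.628, 0.284 and 0.475 between 3 and 6 weeks. Replicate 2 at 3 weeks correlated more with 6-week replicate 3 (0.324) than with its own number. Against naive Mo, replicate 1 gave 0.565 and 0.46, replicate 3 gave 0.609 and 0.486, and replicate 2 gave -0.0895 and -0.041. In PMN the same-numbered arrays ran from -0.461 to 0.021. The number was taken to pair the Mo arrays of 3 and 6 weeks, although replicate 2 does not bear this out. The blocked fit used the number in every group of a subset, naive mice included. Alternatives are given in the closing section.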

Additional observations from a re-analysis of the deposited data

Results flagged for a closer look

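The members below are listed because the test of the difference itself, Mo change minus PMN change in the limma fit, passed. For the change from naive mice to 6 weeks 4 of 64 were higher and 2 lower, against 6.47% and 11% of all genes. Neither count exceeded those shares. For the change from naive mice to 6 weeks, the differences were 1.08 for Ndufs8, 0.73 for Ndufa5, 0.65 for Uqcr10, 0.56 for Ndufb2, -0.66 for Uqcrh and -0.72 for Uqcrc2.

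For the change from 3 to 6 weeks, the difference was positive in Ndufa7 (0.53), Cox4i2 (0.51) and Ndufa12 (0.49), each of which fell in PMN (log2 changes of -0.58, -0.41 and -0.32) and did not pass in Mo. The difference was negative, with the larger rise in PMN, in Ndufs4 (-1.39), Ndufv2 (-1.24), Ndufb7 (-1.08), Uqcrc2 (-1.07), Sdhb (-1.04), Cox4i1 (-1.02), Uqcrh (-1.01) and Ndufa1 (-0.93). The same held for Ndufs1 (-0.84), Ndufa6 (-0.80), Uqcrc1 (-0.73), Ndufa3 (-0.70), Cox6c (-0.68) and Ndufv3 (-0.62). In this test 11.9% of all genes were higher and 17.3% lower, and of the brighter genes 11.9% and 32.8%. The 3 of 64 members called higher were under those shares, and the 14 called lower were under the share of the brighter genes. Ndufs4 had 8.76, 9.34 and 9.42 at 3 weeks and 9.10, 9.15 and 9.4 at 6 weeks in Mo, and 6.95 and 6.87 at 3 weeks and 8.32 and 8.36 at 6 weeks in PMN. The spread at 3 weeks in Mo comes from replicate 1, which is the lowest of its group in this gene. No array stood far enough from its group to be listed among the 64 naive PMN groups of 4 that were tested, where chance lists about 1 in 20.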

How the results depend on the processing

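Leaving out single arrays moved the counts of members called as follows: from 0 to 54 for Mo at 3 weeks against naive mice, from 0 to 7 for Mo at 6 against 3 weeks, from 0 to 30 for the difference between subsets at 3 weeks, from 2 to 9 for that at 6 weeks and from 9 to 34 for that between 3 and 6 weeks. The calls among all 19938 genes moved too. In the same order they ran from 16 to 8911, 1000 to 2803, 0 to 3242, 2098 to 3683 and 3641 to 9334. Of the 53 members called in Mo at 6 weeks 40 passed under every alternative, as did 29 of 48 in PMN. For Mo at 3 weeks the count of 24 became 7 with joint quantile normalization, 2 with a floor at an intensity of 64, 0 with Mo fitted alone, 59 with array weights, 41 with the replicate block and 3 with arrays centred on the median of the brighter genes, an alternative chosen after seeing the data. Of all genes 1202 were called in the main fit, and in those alternatives, in the same order, 354, 115, 2, 13210, 5302 and 89. For Mo at 6 against 3 weeks it was 0 with arrays centred on their median, with the floor or with Mo fitted alone, 6 with array weights and 5 with the replicate block. All genes had 1497 calls in the main fit there and, in that order, 1111, 1154, 877, 3731 and 2374. The 0 calls for the difference between subsets at 3 weeks became 40 with array weights and 7 with the replicate block, where 6358 and 1027 of all genes were called. For the difference at 6 weeks the 6 calls became 1 with centring on the median, 21 with array weights and 11 with centring on brighter genes, where 2260, 5709 and 3827 of all genes were called. For that between 3 and 6 weeks the 17 became 11 with centring or the floor, 39 with array weights and 27 with the replicate block. There 4267, 5055, 10262 and 7916 of all genes were called. Without joint normalization the Mo minus PMN difference turned to 0.00561 for Cox4i2 in naive mice and to 0.0978 for Ndufa7 at 6 weeks. Sdhc in PMN at 6 weeks turned to -0.0072 with joint quantile normalization, and Ndufa11 in Mo at 6 weeks to -0.0385 with centring on the brighter genes, where it had 0.26. The median change of all genes was -0.18 in PMN at 6 weeks, so centring on the median adds that much to each PMN change. Apart from alternatives whose own construction shows it, the cause was not tested. The replicate number was taken to pair the Mo arrays of 3 and 6 weeks by their correlations. For replicate 2 that correlation was lower than the one between 3-week replicate 2 and 6-week replicate 3. The block covered every group, and the other blocked counts rest on numbers that were not shown to pair arrays. Limits are the 2 PMN arrays per tumour stage, the spread of the 3-week Mo arrays, and a separate normalization of the subsets. That normalization is inferred from shared values and not stated in the labels.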

Other observations

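Features left out of the tests above gave further values, from a fit over all 35557 features. The 2 features shared by Ndufb4 and Ndufb4b, of the membrane arm of complex I, rose at 6 weeks by 0.70 and 0.77 in Mo and by 0.76 and 1.02 in PMN. The feature shared by Ndufs5 and Ndufs5-ps rose by 0.48 in Mo and 0.43 in PMN. The 3 features shared by Cox7c and Gm12338 had changes of 0.09, 0.09 and 0.16 in Mo and of 0.13, 0.10 and 0.06 in PMN, with adjusted p-values from 0.275 to 0.68, so this complex IV subunit had no call while most of its partners rose. Transcripts of a gene and its near-identical copy cannot be told apart on a shared feature.

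Second features of members did not always give the same call. The other feature of Uqcr11 rose by 0.53 in Mo at 6 weeks (adjusted p = 0.0111), where the feature used above had 0.11. In PMN the other feature of Ndufc1 had 0.10 (adjusted p = 0.639) and that of Ndufa11 had 0.21 (adjusted p = 0.218), where the features used above rose by 0.54 and 0.35. The other feature of Cox5b rose by 1.04 in Mo and 0.65 in PMN, and that of Cox6c by 0.75 and 1.20, beside 0.92 and 0.57 for Cox5b and 0.74 and 0.90 for Cox6c.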
